A study of Mus musculus with 2 samples.

Results

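The 44 genes described here are the transcripts by which a dividing cell is usually recognised in expression data, and they were followed in mouse tumours under a control diet and under a serine/glycine-free diet (SG-free below). They were chosen by name, and all 44 are among the 32285 genes of both count matrices. By role they are 25 mitosis genes, 14 DNA replication genes and 5 genes of the G1 phase and of entry into S phase. The study grew subcutaneous tumours in mice and profiled single cells by droplet sequencing of transcripts and T cell receptors (10x Genomics immune profiling). Each diet is represented by 1 library, and how many mice each library holds is not given in the sources used here. Neither library carries a further treatment or engineered allele in its labels. The labels name mouse as the organism and tumour as the source, while their extraction text speaks of human cardiac tissue. The question was which cell classes divide under each diet.

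A cell that commits to division licenses its replication origins in G1, copies its DNA in S phase, and then builds a spindle, condenses its chromosomes and separates them in mitosis. The E2F factors drive the replication genes around the G1 to S transition, whereas most mitosis genes are kept off until G2 by the DREAM complex and then switched on by B-Myb and FoxM1 through a CHR element that often sits beside CCAAT boxes. In a tumour the cancer cells are the most familiar dividing cells, but activated T cells, NK cells and some macrophages also divide there.

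The promoters of the mitosis and replication genes differed in the CHR and E2F letters they held. In the RefSeq table of start-site windows (GRCm38.p6, 250 bases before to 50 bases after each start, 300 bases in all), 33 of the 44 genes had an entry. The genes without one were Tpx2, Ccna2, Aurkb, Kif20a, Spc24, Pbk, Mcm4, Gins2, Esco2, Ccne2 and Ccnd1. Motifs were searched on either strand, namely the CHR letters TTTGAA, the CCAAT box CCAAT, and an E2F site read as TTTCCCGC or TTTGGCGC, none of which contains another. A CHR match lay in 14 of 19 mitosis windows (73.7%) against 17.9% of all 32851 windows. A CCAAT match lay in 17 of the 19 (89.5%) against 37.4% of all windows, and 14 (73.7%) held both against 6.95% of all windows. No mitosis window held the E2F letters. Among the 12 windows of 11 replication genes CCAAT lay in 7 (58.3%), and E2F letters took the place of CHR. There 7 (58.3%) held the E2F letters against 1.56% of all windows, namely those of Mcm3, Mcm5, Mcm6, Mcm7, Hells, Cdc6 and Cdt1, and 1 (8.33%), that of Mcm2, held CHR. The 4 windows of the 3 G1 genes with an entry (Ccne1, E2f1 and Cdkn1a) held none of the 3 motifs. Matches of letters are a description and do not show that a factor binds. The 6 windows printed next show the 2 layouts, with the matched letters in capitals. Aspm, a spindle pole protein, lies at chr1:139454523-139454822 on the plus strand, Aurka, the kinase of the spindle poles, at chr2:172370521-172370820 on the minus strand, and Bub1b, the BubR1 checkpoint kinase, at chr2:118597961-118598260 on the plus strand. In these 3 the capitals mark CCAAT boxes, which read ATTGG where they run on the other strand, followed by TTTGAA close to the start site. Cdc6, which loads the replicative helicase, lies at chr11:98907901-98908200, its partner Cdt1 at chr8:122567765-122568064, and the chromatin remodeller Hells at chr19:38930740-38931039, all on the plus strand. In these 3 the capitals mark the E2F letters, which read GCGGGAAA in Cdc6 because they run on the other strand.
Aspm: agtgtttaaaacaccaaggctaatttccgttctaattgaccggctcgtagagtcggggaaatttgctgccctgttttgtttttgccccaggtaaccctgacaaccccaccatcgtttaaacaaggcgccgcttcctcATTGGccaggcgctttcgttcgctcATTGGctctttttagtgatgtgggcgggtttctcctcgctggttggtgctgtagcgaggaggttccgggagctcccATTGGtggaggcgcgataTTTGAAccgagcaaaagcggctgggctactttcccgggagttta
Aurka: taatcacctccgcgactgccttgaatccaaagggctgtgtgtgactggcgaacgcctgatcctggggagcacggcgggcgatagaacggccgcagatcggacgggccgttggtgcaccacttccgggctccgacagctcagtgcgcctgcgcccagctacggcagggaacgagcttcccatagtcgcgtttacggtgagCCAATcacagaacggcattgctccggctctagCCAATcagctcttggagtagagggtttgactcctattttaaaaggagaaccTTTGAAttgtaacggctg
Bub1b: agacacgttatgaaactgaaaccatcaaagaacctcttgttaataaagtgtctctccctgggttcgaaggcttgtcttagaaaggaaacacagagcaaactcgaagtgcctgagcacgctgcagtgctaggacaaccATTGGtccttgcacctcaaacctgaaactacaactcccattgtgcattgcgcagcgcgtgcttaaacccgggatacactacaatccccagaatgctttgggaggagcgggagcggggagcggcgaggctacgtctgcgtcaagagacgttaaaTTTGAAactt
Cdc6: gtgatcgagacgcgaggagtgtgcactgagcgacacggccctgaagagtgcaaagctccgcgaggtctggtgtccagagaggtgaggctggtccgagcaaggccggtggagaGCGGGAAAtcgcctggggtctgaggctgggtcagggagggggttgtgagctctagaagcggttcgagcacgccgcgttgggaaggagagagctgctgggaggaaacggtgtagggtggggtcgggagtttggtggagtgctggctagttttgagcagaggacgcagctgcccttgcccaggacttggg
Cdt1: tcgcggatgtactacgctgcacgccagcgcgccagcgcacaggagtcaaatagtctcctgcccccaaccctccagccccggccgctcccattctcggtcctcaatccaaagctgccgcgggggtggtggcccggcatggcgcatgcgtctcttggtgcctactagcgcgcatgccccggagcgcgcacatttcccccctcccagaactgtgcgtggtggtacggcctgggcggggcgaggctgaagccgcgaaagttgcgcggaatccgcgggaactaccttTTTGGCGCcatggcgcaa
Hells: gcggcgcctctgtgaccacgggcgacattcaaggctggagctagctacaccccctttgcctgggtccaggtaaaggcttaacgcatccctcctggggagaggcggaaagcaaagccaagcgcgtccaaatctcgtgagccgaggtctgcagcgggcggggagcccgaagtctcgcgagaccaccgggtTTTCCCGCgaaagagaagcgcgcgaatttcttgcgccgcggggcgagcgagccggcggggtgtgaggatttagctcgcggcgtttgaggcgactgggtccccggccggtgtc

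Cells were sorted into 4 classes by a few transcripts. CD8 T cells carried a T cell receptor beta contig and more Cd8a and Cd8b1 than Cd4 unique molecular identifiers (UMIs, the counted transcripts). NK cells had at least 1 UMI of Ncr1, the NKp46 receptor, and no receptor contig. Macrophages had at least 0.1% of their UMIs from the complement genes C1qa, C1qb and C1qc and no Krt20, and tumour cells had at least 1 UMI of the keratin Krt20 and none of Ptprc, the CD45 gene of blood cells. The control library gave 69 CD8 T cells, 17 NK cells, 694 macrophages and 4121 tumour cells out of 8262 barcodes that passed a filter. The SG-free library gave 166, 147, 632 and 4613 out of 7913. Median depth differed between diets in the lymphocytes, at 3810 and 8181.5 UMIs per CD8 T cell and 11056 and 6245 UMIs per NK cell in the control and SG-free libraries. It was closer in macrophages (9585 and 10472) and tumour cells (25087 and 23206). All levels below are therefore CPM, the counts scaled to the total UMIs of the class without T cell receptor and immunoglobulin genes. For all shares of cells each cell was thinned to 1000 UMIs. There is no replicate of either diet, so no difference between diets has a test. The 95% intervals cover counting error only, and they are too narrow even for that, since mitosis UMIs come in clusters from the dividing cells.

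The classes carried the transcripts that define them, with RNA of other cells beside them. In control and SG-free a list of 8 T cell genes summed to 2778 and 3327 CPM in CD8 T cells, and 12 macrophage genes to 24135 and 26487 CPM in macrophages. In NK cells 11 of 12 NK genes were present (9930 and 7969 CPM, Klra8 at 0). The macrophage list includes C1qa, C1qb and C1qc, the NK list Ncr1, and the epithelial list used next Krt20. The gates fixed the presence of these genes in their classes, and sums without them were not computed. In tumour cells the epithelial list was low (183 and 268 CPM) and Krt19 in control and Epcam and Cldn4 in SG-free had no UMI, so "tumour" here means the Krt20 gate rather than a full epithelial profile. Fibroblast-list RNA in those cells was at 404 and 631 CPM. Barcodes rich in 17 genes abundant in tumour cells made up 10.1% of CD8 T cells in control and 16.3% in SG-free, but they held 41.1% and 45.5% of the class's UMIs. In NK cells they were 17.6% and 22.4% of cells and 27.4% and 52.4% of UMIs, against 4.9% and 4.91% of cells in macrophages. Macrophage-list RNA stood at 1550 and 337 CPM in CD8 T cells. Each result was therefore also computed on cleaned gates, chosen after seeing the data, without those barcodes and, for lymphocytes, without C1q-rich ones. The cleaned tumour gate replaced Krt20 by the 17-gene level itself. Cleaning brought macrophage-list RNA in CD8 T cells to 37.5 and 36.7 CPM and kept 61 and 138 CD8 T cells, 14 and 112 NK cells, 657 and 599 macrophages, and 5975 and 5597 tumour cells. The libraries shared 104 barcodes, 1.23% of control and 1.3% of SG-free barcodes, and leaving these out moved no summed level or share beyond its interval. In control no cell fell in CD8 T and tumour gates together and 2 fell in CD8 T and macrophage gates, while in SG-free 5 CD8 T cells and 3 NK cells also met the tumour gate.

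Under the control diet mitosis transcripts were found in a larger share of tumour cells than of CD8 T cells or macrophages. Under the SG-free diet the shares of CD8 T cells and tumour cells were 29.9% and 30.8%, and those of NK cells and macrophages lay below both. A cell with at least 2 of the 25 mitosis genes at 1000 UMIs was counted as having mitosis transcripts. In the control library these were 13 of 65 CD8 T cells (20%, 95% exact binomial interval 11.1 to 31.8), 6 of 17 NK cells (35.3%, 14.2 to 61.7), 166 of 669 macrophages (24.8%, 21.6 to 28.3) and 1713 of 4119 tumour cells (41.6%, 40.1 to 43.1). In the SG-free library they were 49 of 164 CD8 T cells (29.9%, 23 to 37.5), 22 of 147 NK cells (15%, 9.62 to 21.8), 110 of 614 macrophages (17.9%, 15 to 21.2) and 1418 of 4611 tumour cells (30.8%, 29.4 to 32.1). Within the control library the CD8 T share was 0.481 times that of tumour cells (0.256 to 0.825), while in SG-free it was 0.972 times (0.715 to 1.29). SG-free CD8 T cells also had 2 times the share of NK cells (1.18 to 3.47) and 1.67 times that of macrophages (1.17 to 2.36). On cleaned gates the latter was 1.43 times, with an interval reaching below 1 (0.952 to 2.1). Neutrophils, which have left the cell cycle, served as background, with 0 of 10 control and 0 of 29 SG-free neutrophils at this depth. A limit of 3 cells allows shares of up to 30% and 10.3%, and the exact binomial upper bounds are 30.8% and 11.9%. At 500 UMIs 0 of 42 and 0 of 52 neutrophils met the criterion, which allows up to 7.14% and 5.77% by the limit of 3 cells (exact upper bounds 8.41% and 6.85%), with median depths of 782.5 and 1037 UMIs per cell before thinning. There the macrophage shares were 16.6% and 12.5% and the tumour shares 28.8% and 20.9%.

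**Figure D1:**
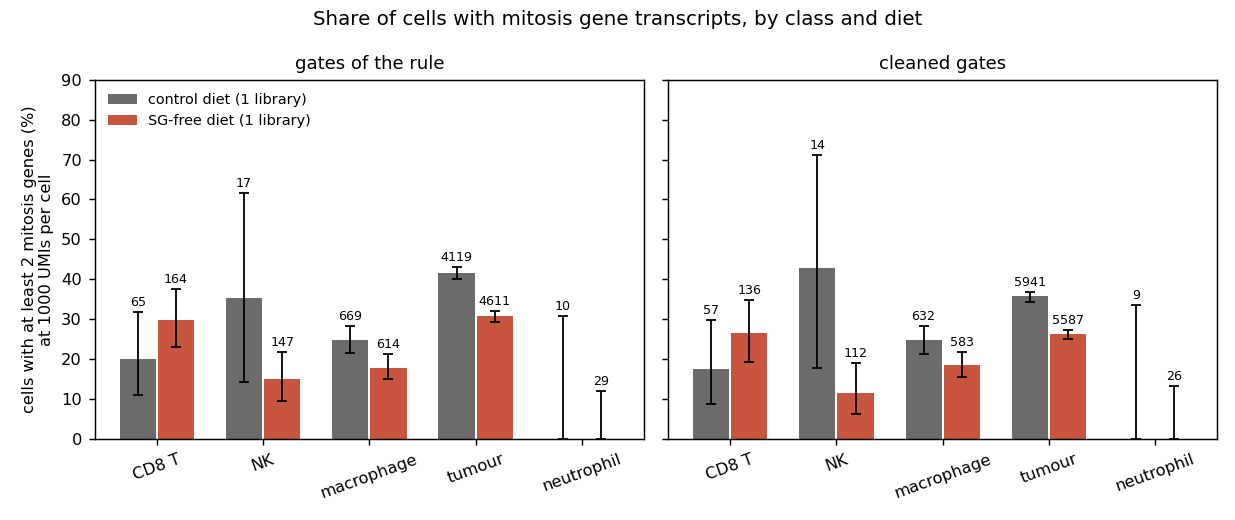
Share of cells (%) with at least 2 of the 25 mitosis genes at 1000 UMIs per cell, for each class and diet, with the gates as described (left) and the cleaned gates (right). Bars are 1 library each, lines are 95% exact binomial intervals and the number over each bar counts its cells. The grey control bar stands above the red SG-free bar in NK cells, macrophages and tumour cells (41.6% against 30.8%), and below it in CD8 T cells (20% against 29.9%).

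Between diets the share was lower under SG-free in tumour cells, macrophages and NK cells and higher in CD8 T cells. The ratio of SG-free to control was 0.739 in tumour cells (0.689 to 0.794) and 0.722 in macrophages (0.562 to 0.924), both with intervals below 1. It was 0.424 in NK cells (0.167 to 1.28) and 1.49 in CD8 T cells (0.798 to 3), where the intervals include 1. On cleaned gates the 4 ratios were 0.735, 0.75, 0.271 (0.096 to 0.869) and 1.51 (0.733 to 3.41), the NK value resting on 14 control cells. Before thinning, where deeper cells show more genes, the shares were 33.3% and 57.8% in CD8 T cells, 76.5% and 34.7% in NK cells, 57.1% and 51.7% in macrophages, and 79.6% and 69.7% in tumour cells, control first. The gap in CD8 T cells was wider there, with the SG-free cells the deeper ones. Cells with 4 or more mitosis genes at 1000 UMIs were 10.8% and 18.3% of CD8 T cells, 17.6% and 7.48% of NK cells, 13% and 9.28% of macrophages and 24.9% and 17.6% of tumour cells. In tumour cells and macrophages the difference was thus also seen in strongly marked cells and was not limited to cells just past the criterion of 2. The lymphocyte shares rest on 7 of 65 and 30 of 164 CD8 T cells and on 3 of 17 and 11 of 147 NK cells. No intervals were computed for the shares with 4 or more genes.

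**Figure D2:**
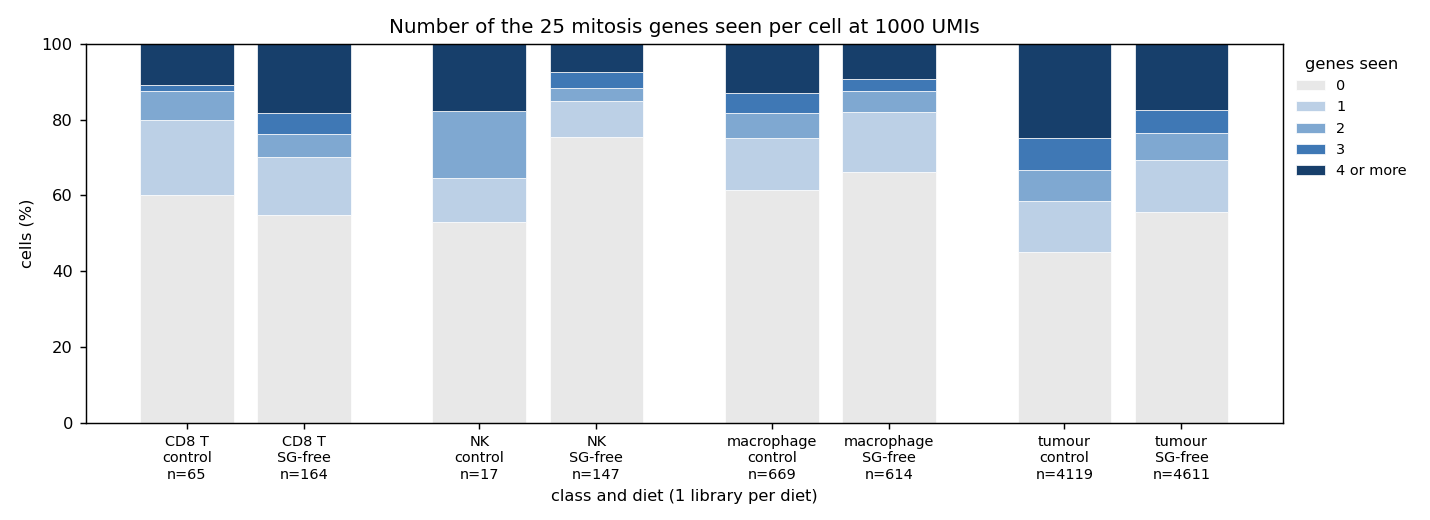
Share of cells (%) by how many of the 25 mitosis genes were seen at 1000 UMIs, per class and diet, with the number of cells under each bar. The darkest segment, 4 or more genes, is 24.9% in control and 17.6% in SG-free tumour cells, and 10.8% and 18.3% in CD8 T cells.

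Replication genes gave a share ratio near 1 in CD8 T cells and ratios below 1 in the other classes, with an interval below 1 in tumour cells. At least 2 of the 14 genes at 1000 UMIs were seen in 18.5% of control and 18.9% of SG-free CD8 T cells (ratio 1.02, 0.511 to 2.19), in 35.3% and 14.3% of NK cells (0.405, 0.158 to 1.23), and in 11.4% and 9.45% of macrophages (0.832, 0.58 to 1.19). In tumour cells the shares were 18.6% and 13% (0.701, 0.629 to 0.781). Tumour cells with both mitosis and replication genes were 8.91% in control and 4.73% in SG-free, and those with mitosis genes alone 32.7% and 26%. Among CD8 T cells, those with mitosis genes alone were 12.3% in control and 23.8% in SG-free, whereas cells with both were 7.69% and 6.1% and cells with replication genes alone 10.8% and 12.8%. The higher CD8 T share under SG-free was thus found among cells with mitosis genes and fewer than 2 replication genes.

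The summed level of the 25 mitosis genes followed the shares. It was 1740 CPM in control and 2800 CPM in SG-free CD8 T cells (ratio 1.61, 1.49 to 1.73), and 1970 and 1427 CPM in NK cells (0.725, 0.662 to 0.795). In macrophages it was 1728 and 1188 CPM (0.688, 0.669 to 0.707) and in tumour cells 3067 and 2296 CPM (0.749, 0.745 to 0.752). Cleaned gates gave 1.53, 0.588, 0.682 and 0.753, and weighting every cell equally gave 1.48 (1.15 to 1.9), 0.459, 0.707 and 0.711. Neutrophils held 6 and 8 mitosis UMIs in all (175 and 125 CPM), 3 and 7 of them from Pttg1, the securin gene. The 14 replication genes summed to 1131 and 845 CPM in CD8 T cells (0.747, 0.677 to 0.825), 898 and 664 CPM in NK cells (0.74), 595 and 549 CPM in macrophages (0.921, 0.882 to 0.962) and 842 and 668 CPM in tumour cells (0.793, 0.786 to 0.801). The replication ratio of CD8 T cells moved to 0.877 (0.774 to 0.995) on cleaned gates and to 0.976 (0.706 to 1.37) with equal weight per cell. In macrophages equal weight gave 0.976 (0.837 to 1.14). In these libraries fewer dividing cells and less RNA per dividing cell both lower a summed level. Both can also lower the shares above, which depend on detection. In control tumour cells the mitosis share was 41.6% at 1000 UMIs and 28.8% at 500 UMIs. Cell numbers and RNA per cell were thus not told apart.

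**Figure D3:**
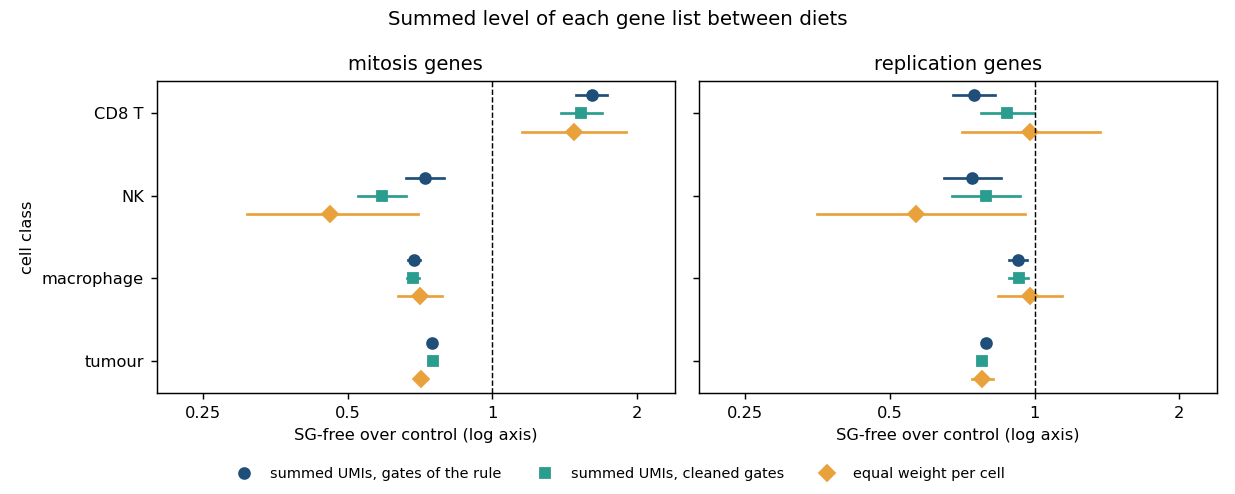
Ratio of SG-free to control (log axis) of the summed mitosis genes (left) and replication genes (right) in each class, from summed UMIs with both kinds of gate and with equal weight per cell. Points are ratios of 1 library to 1 library and lines 95% counting intervals. The mitosis ratio of CD8 T cells lies above 1 (1.61, 1.53 and 1.48) and those of NK cells, macrophages and tumour cells lie below 1.

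A gene was compared singly where it reached a mean of 20 CPM over the libraries and 10 UMIs, and it is counted as higher or lower at a ratio of at least 1.5-fold. The minimum lets a gene in through 1 library while the other is under 20 CPM, and such a gene had to differ. Among the 44, with the gates as described, these were Ccne1 and Kif20a in CD8 T cells and Bub1 and Bub1b in NK cells. In macrophages they were Aurka, Kif11, Kif20a, Pbk and Hells, and in tumour cells Bub1b and Esco2. On cleaned gates they were Cenpe, Bub1, Kif20a, Pbk, Ung, Cdc6, Ccne1 and E2f1 in CD8 T cells. Those of cleaned NK cells were Ccnb1, Plk1, Bub1b, Kif20a, Cdt1 and E2f1. Cleaned macrophages had the same genes as before, and cleaned tumour cells had Bub1b, Neil3 and Esco2. All of these stay in the counts below, and their ratios are no support on their own. With the gates as described 40 of the 44 genes passed in CD8 T cells, 34 in NK cells, 35 in macrophages and 40 in tumour cells. Ccne2, Cdc6 and Ung passed in none of the 4 classes with these gates. Bub1b also missed the minimum in CD8 T cells, Ccne1 in tumour cells, and Bub1, Bub1b, Aspm, Neil3, Esco2 and Ccne1 in macrophages. In NK cells Aurka, Aspm, Spc25, Pbk, Neil3, Esco2 and Ccne1 missed it. The median gene of each class had a log2 ratio of SG-free to control of -0.05 in CD8 T cells, 0.02 in NK cells, -0.10 in macrophages and -0.09 in tumour cells, on the log2 scale of CPM plus 5, against which the lists can be read.

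The mitosis genes of CD8 T cells mostly had ratios above 1, while their replication genes had ratios below 1 that seldom reached the fold. Of 24 mitosis genes 22 had a ratio above 1, 10 were at least 1.5-fold higher and 0 lower, with a median log2 ratio of 0.36. Of all 5931 genes compared in this class, 8.83% were at least 1.5-fold higher and 13.5% lower, and 2603 had a ratio above 1. Cenpa (ENSMUSG00000029177), the histone variant that marks centromeres, had 84.6 CPM in control and 255 CPM in SG-free (3.01-fold, 2.18 to 4.27). Ccnb1, the cyclin B1 that drives entry into mitosis, had 23.3 and 63.9 CPM (2.75-fold), and Ccnb2 61.3 and 94.5 CPM (1.54-fold). The anaphase ubiquitin-conjugating enzyme Ube2c (ENSMUSG00000001403) had 180 and 466 CPM (2.59-fold, 2.07 to 3.28), and Cdc20, which activates the same ligase, 44.4 and 112 CPM (2.53-fold). Cenpf and Cenpe, which act at the kinetochore, were 2.13-fold and 2.34-fold higher, and Kif20a, a kinesin of cytokinesis, 2.19-fold. Kif20a passed the minimum through SG-free alone. On cleaned gates Cenpa kept a ratio of 3.04 and the others stood at 1.95 for Ube2c, 1.93 for Ccnb1, 1.77 for Cdc20 and 1.43 for Kif20a. With the gates as described, ratios nearer to 1 were found for the proliferation antigen Mki67 (131 and 184 CPM, 1.4-fold, 1.07 to 1.87), the topoisomerase Top2a (1.22-fold), the passenger proteins Aurkb (1.3-fold) and Birc5 (1.3-fold), and Plk1, the polo kinase (35.9 and 37.5 CPM, 1.04-fold). On cleaned gates Mki67 (1.53), Top2a (1.45) and Aurkb (1.55) were not below Kif20a. The cyclin-dependent kinase Cdk1 (0.949-fold) and Spc24 (0.992-fold) were the mitosis genes with ratios below 1. The cleaned gates gave 11 of 23 mitosis genes higher and 1 lower, the kinase gene Pbk, where 14% of 5698 genes were higher and 17.9% lower. Cenpe and Bub1 among the higher, and Pbk, passed the minimum there through 1 library alone, so they had to differ.

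Each of the 12 replication genes compared in CD8 T cells had a ratio below 1, with a median log2 ratio of -0.34. Of all 5931 genes 3328 had a ratio below 1. At least 1.5-fold lower were 2 of the 12, a share near the 13.5% of all genes. Mcm2, a subunit of the replicative helicase, had 88.8 CPM in control and 49.6 CPM in SG-free (0.559, 0.385 to 0.825), and Gins2, of the same helicase complex, 61.3 and 35.9 CPM (0.586). The other helicase subunits lay between 0.686 for Mcm7 and 0.894 for Mcm4, with Mcm5 at 0.818 (99.4 and 81.3 CPM). The sliding clamp Pcna (ENSMUSG00000027342) had 175 and 143 CPM (0.816, 0.636 to 1.06). Cdc6, under the minimum, had 29.6 and 7.39 CPM (0.25, 0.11 to 0.565). On cleaned gates Mcm2 stayed at 0.598 and Cdc6 at 0.287, while Gins2 was at 0.896 and Pcna at 1.06. There 5 of 14 replication genes had ratios above 1, against 2618 of all 5698 genes. At least 1.5-fold lower were 4, where 17.9% of all genes were, so the list as a whole lay nearer to 1. Ung and Cdc6 among the 4 passed the minimum there through control alone, so they had to differ. Of the G1 genes, Ccne1, the cyclin E1 that starts S phase, had 38.1 and 12.7 CPM (0.333, 0.173 to 0.651), and 0.313 on cleaned gates. Ccne1 passed the minimum through control alone. Ccne2 had about 10 CPM in each library. Ccnd1, the cyclin D1, had 243 and 226 CPM with the gates as described but 11.2 and 7.94 CPM once tumour-RNA-rich barcodes were left out. The cyclin-dependent kinase inhibitor Cdkn1a (p21) had 152 and 148 CPM, and 75 and 37.7 CPM on cleaned gates (0.503). E2f1, the S phase transcription factor, had 31.7 and 30.1 CPM (0.949).

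In NK cells the direction was the reverse for mitosis genes. Of 21 compared, 19 had ratios below 1, 11 were at least 1.5-fold lower and 1 higher, with a median log2 ratio of -0.57. Of all 5613 genes compared in this class 14.3% were lower and 19.5% higher by that fold, and 2689 had ratios below 1, with 17 control cells behind the comparison. Plk1 had 57 CPM in control and 20.8 CPM in SG-free (0.366, 0.198 to 0.7), Kif20a 73.7 and 27.1 CPM (0.368), and Cenpa 218 and 97.8 CPM (0.449). Ccnb1 stood at 57 and 25.2 CPM (0.443) and Cdc20 at 114 and 63.7 CPM (0.559). Mki67 (134 and 110 CPM, 0.819), Top2a (0.81), Aurkb (0.834) and Birc5 (0.854) were closer to 1, with intervals that include it. Cdk1 was higher (46.9 and 73.2 CPM, 1.56, 0.893 to 2.94), as was Ube2c (147 and 196 CPM, 1.33). Without tumour-RNA-rich and C1q-rich barcodes these ratios were 0.928 and 0.602. On cleaned gates 14 of 20 mitosis genes were lower and 0 higher, where 14.8% of 5348 genes were lower and 23.6% higher. Plk1, Kif20a, Ccnb1 and Bub1b among the 14 passed the minimum there through control alone, so they had to differ. Of 10 replication genes 7 had ratios below 1 and 4 were at least 1.5-fold lower. The lowest was Hells, with 90.5 and 32.2 CPM (0.356, 0.219 to 0.59), and Mcm3 had 161 and 82.6 CPM (0.514). Mcm2 stood at 0.631, Mcm5 at 0.607, Pcna at 0.727 and Gins2 at 1.21, with Cdc6 under the minimum at 16.8 and 9.46 CPM. Ccnd1 had 214 and 233 CPM, and on cleaned gates 0 and 1.39 CPM. Cdkn1a had 134 and 191 CPM (1.42) but 125 and 95.8 CPM on cleaned gates (0.769), so its direction turned with the gate. E2f1 stood at 0.89, Ccne1 at 13.4 and 11.4 CPM, and Ccne2 at 0 and 4.42 CPM.

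In macrophages every mitosis gene compared had a ratio below 1, from 0.533 to 0.907. All 22 had ratios below 1, 6 were at least 1.5-fold lower and 0 higher, with a median log2 ratio of -0.50. Of all 5523 genes compared 2.19% were lower and 2.63% higher by that fold, and 3849 had ratios below 1. Aurka (ENSMUSG00000027496) had 35.4 CPM in control and 18.9 CPM in SG-free (0.533, 0.429 to 0.66), Cenpf 57.1 and 31.5 CPM (0.552) and Ccnb2 85.4 and 47.6 CPM (0.558). Cdc20 (53.6 and 33.3 CPM, 0.622) and Plk1 (36.9 and 23 CPM, 0.623) came next. Aurka and Kif11, both past the fold, passed the minimum through control alone, so they had to differ. Mki67 had 128 and 86.8 CPM (0.678, 0.611 to 0.751), Ube2c 207 and 141 CPM (0.682) and Birc5 186 and 127 CPM (0.682). Top2a (0.73), Ccnb1 (0.714) and Aurkb (0.761) lay nearer to 1, up to Spc25 at 0.907 (0.721 to 1.14). The 10 replication genes compared had a median log2 ratio of -0.09 against -0.10 for all genes, though the 20 replication genes outside the 44 had one of -0.28. Pcna had 124 and 134 CPM (1.08, 0.984 to 1.18), Cdt1 35.1 and 35.2 CPM and Mcm7 47 and 46.4 CPM (0.987). Mcm2 (0.957), Gins2 (0.871) and Mcm5 (0.809) were between these and Hells, the 1 replication gene past the fold (29.3 and 16.9 CPM, 0.576). Hells also passed the minimum through control alone. Cdc6 stood at 11.9 and 9.22 CPM. Of the G1 genes, Ccnd1 had 323 and 247 CPM (0.764), E2f1 36.3 and 32.2 CPM, Ccne1 14 and 17.6 CPM, Ccne2 6.22 and 6.52 CPM and Cdkn1a 273 and 268 CPM (0.983). Cleaned gates changed little here, with 7 of 22 mitosis genes lower where 2.34% of 5476 genes were lower and 2.7% higher. Erythrocyte-gene RNA in macrophages was at 337 CPM in control and 0 in SG-free, and its part in these values was not tested.

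In tumour cells all 25 mitosis genes and all 12 replication genes compared were lower under SG-free, most of them by less than 1.5-fold. The mitosis genes had a median log2 ratio of -0.43 and the replication genes one of -0.31. Of all 5463 genes compared 3750 had ratios below 1. Only 3 mitosis genes reached the fold, where 1.13% of 5463 genes were lower and 2.31% higher. The 3 mitosis genes were Aurka (55.4 and 33.3 CPM, 0.6, 0.576 to 0.625), Cdc20 (159 and 105 CPM, 0.661) and Plk1 (62.5 and 41.6 CPM, 0.666). Ccnb1 stood at 0.699 (82.3 and 57.5 CPM), Birc5 at 0.726 and Aurkb at 0.726. Closest to 1 were Mki67 (103 and 86.5 CPM, 0.838), Top2a (169 and 141 CPM, 0.837) and Ube2c (543 and 441 CPM, 0.813). Replication genes ran from Esco2, which joins sister chromatids (29.2 and 19.5 CPM, 0.668), and Hells (0.703) to Mcm5 (56.9 and 49.2 CPM, 0.866) and Mcm7 (93 and 81.5 CPM, 0.876). Esco2 passed the minimum through control alone. Pcna had 161 and 130 CPM (0.807), Mcm2 49.8 and 40.4 CPM (0.81) and Gins2 64.7 and 51.8 CPM (0.8). The 4 genes under the minimum had ratios below 1 too, Ung at 11.3 and 8.03 CPM (0.709), Cdc6 at 10.5 and 6.11 CPM (0.581), Ccne1 at 21.9 and 12.9 CPM (0.589) and Ccne2 at 11 and 7.25 CPM (0.656). Ccnd1 was lower as well (773 and 626 CPM, 0.81). E2f1 had 46.1 and 47.3 CPM (1.03, 0.987 to 1.07), and Cdkn1a (ENSMUSG00000023067) was the highest of the 40, with 240 CPM in control and 301 CPM in SG-free (1.25, 1.23 to 1.27). The Krt20-independent gate gave 0.62 for Aurka and 1.28 for Cdkn1a, and 1 mitosis gene past the fold where 1.05% of 5516 genes were lower and 2.16% higher.

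**Figure D4:**
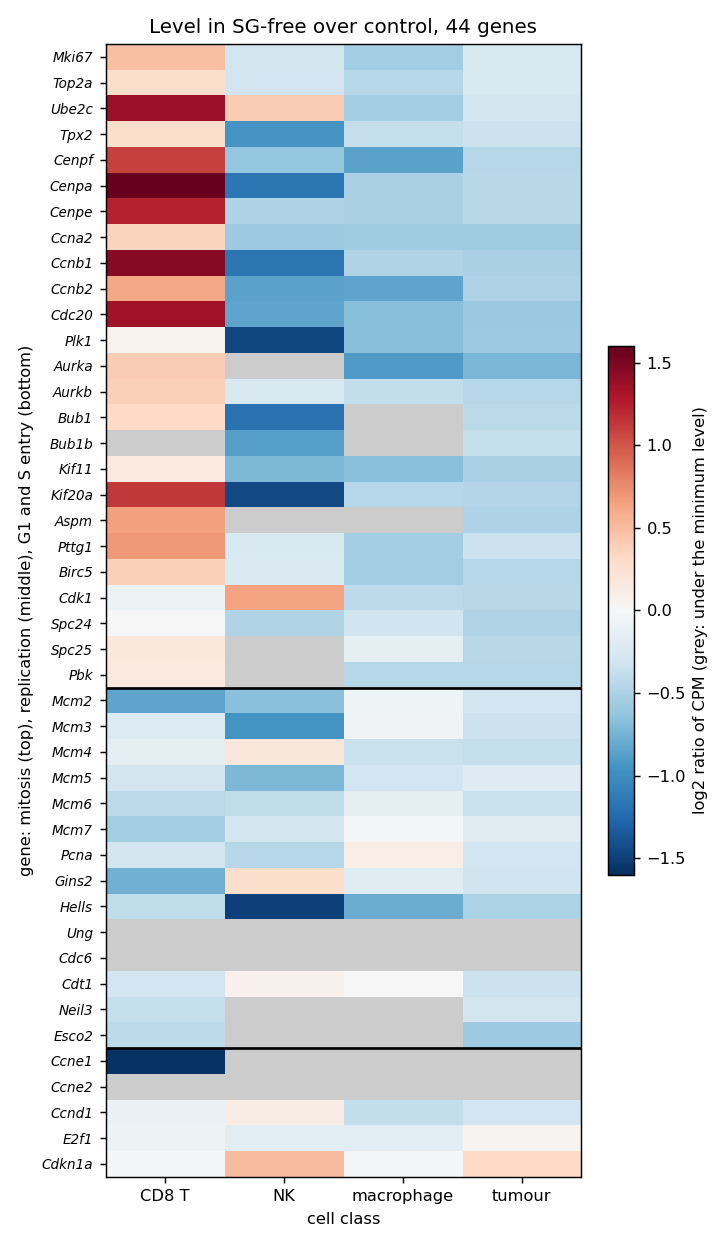
Colour gives the log2 ratio of CPM, SG-free over control, for each of the 44 genes (rows) in the 4 classes (columns), 1 library per diet. Grey cells missed the minimum level. In the mitosis block the CD8 T column is red for 22 of 24 genes, while the macrophage and tumour columns are blue throughout. In the replication block the CD8 T column is blue for its 12 genes.

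Further genes of the same processes were listed apart from the 44. Of 29 other mitosis genes in CD8 T cells 5 were at least 1.5-fold higher and 0 lower, against 8.83% and 13.5% of all genes, with a median log2 ratio of 0.24. The phosphatase Cdkn3 (12.7 and 43.8 CPM, 3.46-fold) and Cdc25b (1.94-fold), which activates Cdk1, were the highest, and the condensin subunit Ncaph (0.776) and the anillin gene Anln (0.786) the lowest. Cdkn3 passed the minimum through SG-free alone, so it had to differ. In NK cells 0 of 25 were higher and 7 lower, against 19.5% and 14.3% of all genes, led by Sgo2a, a protector of cohesion (0.377), and the spindle gene Hmmr (0.402). In macrophages 0 of 21 were higher and 5 lower, against 2.63% and 2.19% of all genes, with Cdkn3 at 0.563 and Hmmr at 0.599. In tumour cells 0 of 35 were higher and 2 lower, against 2.31% and 1.13% of all genes. The lower were the kinesin Kif2c (25.5 and 16.5 CPM, 0.645), which passed the minimum through control alone, and Sgo2a (0.656). Each of the 35 had a ratio below 1, as had 3750 of all 5463 genes.

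Of 27 other replication genes in CD8 T cells 9 were at least 1.5-fold lower and 0 higher, against 13.5% and 8.83% of all genes, with a median log2 ratio of -0.38. E2f2 (0.428) and the checkpoint mediator Clspn (63.4 and 28 CPM, 0.441) were the lowest, and the histone mRNA binder Slbp (1.07) and the dUTPase Dut (1.05) the highest. In NK cells 1 of 22 was higher and 3 were lower, a share near the 14.3% of all genes, with a median log2 ratio of -0.02 against -0.41 for the replication genes among the 44. Among the lower were Dut (275 and 155 CPM, 0.563) and the thymidine kinase Tk1 (0.614). Macrophages had 0 of 20 past the fold in either direction, against 2.63% of all genes higher and 2.19% lower. Each of the 20 had a ratio below 1, as had 3849 of all 5523 genes, with a median log2 ratio of -0.28 for the 20. There the ribonucleotide reductase subunit Rrm2 was lowest (79.4 and 54.6 CPM, 0.687). Tumour cells had 5 of 26 lower, against 1.13% of all genes, including the repressor E2f8 (0.611) and Rrm2 (170 and 105 CPM, 0.617). The helicase subunit Cdc45 was the 1 gene above 1 (34 and 39.5 CPM, 1.16), where 1713 of all 5463 genes were above 1.

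A list of 17 genes of quiescence, G1 and the p53 response did not move as a block. In tumour cells Ccng2, a cyclin of resting cells, had 19.2 CPM in control and 30.3 CPM in SG-free (1.57, 1.49 to 1.66), and the antiproliferative Btg2 95.2 and 139 CPM (1.46), while the Cdk4 and Cdk6 inhibitor Cdkn2d (0.744) and Ccng1 (0.747) were lower. In CD8 T cells Ccng2 was also the highest (10.6 and 41.2 CPM, 3.9, 1.6 to 12.3), and cyclin D2, Ccnd2 (222 and 106 CPM, 0.478), and the quiescence factor Klf2 (524 and 335 CPM, 0.639) the lowest. Cdkn2c (1.94) was at 0.993 on cleaned gates. In CD8 T cells and in tumour cells Ccng2 passed the minimum through SG-free alone, so it had to differ. In NK cells 5 of 14 were higher, against 19.5% of all genes, led by Btg1 (90.5 and 340 CPM, 3.76) and Ccng2 (2.4), and Ccng1 was lower (0.553), with Ccnd2 at 0.724. In macrophages 0 of 13 passed the fold, with Btg2 at 1.3, the inhibitor Cdkn1b at 1.28, Cdkn2c at 0.771 and Ccng1 at 0.797.

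Cells with mitosis transcripts were then set against cells of the same class and library with none of the 25 at 1000 UMIs, to see what else they carried. These cells were the deeper ones, with a median of 30110 against 21776 UMIs in control tumour cells, and values are again in CPM. The 14 replication genes were higher in them in each class and library, for example 912 against 678 CPM in control tumour cells (1.34) and 888 against 425 CPM in SG-free macrophages (2.09). Not every replication gene took part. Neil3, a glycosylase, and Esco2 stood apart, at 44.9 against 3.98 CPM (11.3) and 49.4 against 4.59 CPM (10.8) in control tumour cells, and at 44 against 3.36 CPM (13.1) and 39.1 against 4.16 CPM (9.41) in SG-free. In macrophages they were 14.9 and 10.7 times higher in control and 12.7 and 12.3 times in SG-free. Mcm5 was 1.33 and 1.42 times higher in tumour cells, control and SG-free. Ung, the uracil glycosylase, went the other way, with 5.72 against 15.3 CPM in control tumour cells (0.374) and 3.99 against 9.11 CPM in SG-free (0.438). E2f1 was also lower, at 0.749 and 0.678. So although Neil3 and Esco2 are listed here with the replication genes, their UMIs lay in the cells with mitosis genes, and those of Ung and E2f1 lay more in the cells without.

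**Figure D5:**
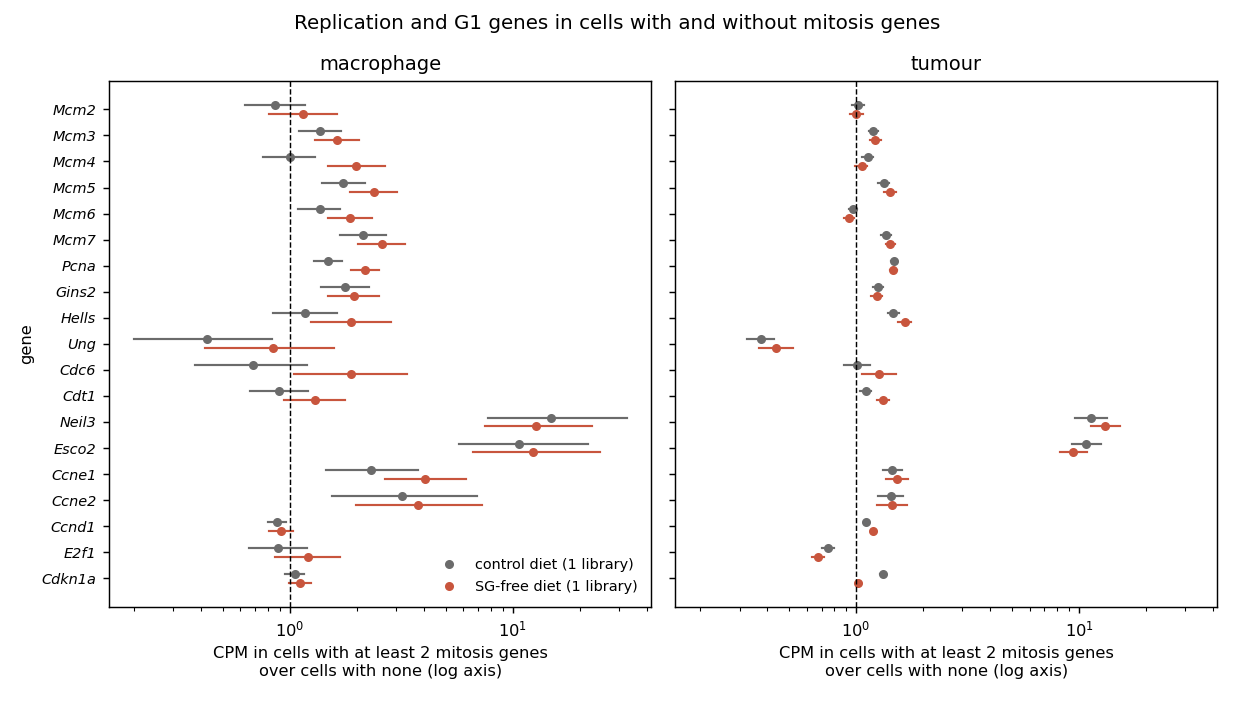
Ratio (log axis) of CPM in cells with at least 2 mitosis genes over cells with none, for replication and G1 genes in macrophages (left) and tumour cells (right), with 95% counting intervals and 1 library per diet. Neil3 and Esco2 lie near 10 or above in each panel, and Ung lies below 1 in tumour cells (0.374 and 0.438).

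Cdkn1a, which halts the cycle, was not depleted from these cells. In control tumour cells it was higher in cells with mitosis genes, at 271 against 206 CPM (1.32, 1.28 to 1.35). In SG-free tumour cells the levels were 305 against 299 CPM (1.02, 1 to 1.05). The higher Cdkn1a of SG-free tumour cells was thus found in cells with none of the mitosis genes (206 CPM in control, 299 CPM in SG-free) more than in cells with them (271 and 305 CPM). At 1000 UMIs 20% of control and 25.6% of SG-free tumour cells had a Cdkn1a UMI, while 23.2% and 17.7% had Ube2c. Neutrophils, which do not divide, had 1689 and 1934 CPM of Cdkn1a. Ccnd1 in tumour cells was slightly higher with mitosis genes, 1.11 times in control and 1.19 times in SG-free.

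A few genes of cell state, chosen after their values were seen, were set between cells with and without mitosis genes in the immune classes. On cleaned gates the granzyme gene Gzmb was lower in CD8 T cells with mitosis genes, at 1517 against 2594 CPM in control (0.585, 0.471 to 0.721) and 211 against 1346 CPM in SG-free (0.157, 0.123 to 0.197). These rest on 10 against 35 and on 36 against 80 cells. The checkpoint receptor gene Pdcd1 was at 1.32 (0.718 to 2.39) and 1.14 (0.996 to 1.31) there. In NK cells the perforin gene Prf1 was lower in cells with mitosis genes in each library, 0.454 in control and 0.324 in SG-free, from 6 against 7 and 13 against 88 cells, while Gzmb in NK cells was at 0.961 and 1.03 with intervals that include 1. Macrophages with mitosis genes had less of the class II gene H2-Ab1 (0.476 in control and 0.482 in SG-free), less of the arginase gene Arg1 (0.327 and 0.447) and less of the monocyte marker Ly6c2 (0.432 and 0.448). Macrophage-list RNA itself was at 0.798 and 0.931 in them. In CD8 T cells with the gates as described, macrophage-list RNA was 2059 CPM in cells with mitosis genes and 810 CPM in cells without in control, and 665 and 62.6 CPM in SG-free. Its part in the mitosis values of that class was not tested, and on cleaned gates, where macrophage-list RNA was 37.5 and 36.7 CPM, the mitosis ratio between diets was 1.53.

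The T cell receptor allowed the CD8 T cells to be split by clone, a clone being cells with the same nucleotide receptor beta chain. In SG-free the largest clone held 63 of the cells compared, of which 20 had mitosis genes (31.7%, 20.6 to 44.7). Other clones of 2 or more cells held 79, of which 25 had them (31.6%, 21.6 to 43.1), and 22 cells had a chain seen once, of which 4 had them (18.2%, 5.19 to 40.3). In control the largest clone had 4 cells, 0 with mitosis genes (exact interval up to 60.2%). Of 20 cells in other clones 3 had them (15%), and of 41 cells with a chain seen once 10 had them (24.4%, 12.4 to 40.3). The mitosis genes were thus not confined to the largest clone in either library, and the intervals of the clone groups overlap within each library. CD4 T cells, identified by the reverse criterion, numbered 56 and 32. The mitosis genes of CD4 T cells summed to 1749 and 3921 CPM (2.24, 2.05 to 2.46), a ratio above 1 as in CD8 T cells. On cleaned gates the sums were 989 and 1823 CPM (1.84). Equal weight per cell gave 1.28 (0.79 to 2.05), but 0.759 (0.358 to 1.53) on cleaned gates, where the direction turned. At 1000 UMIs 6 of 54 control (11.1%) and 5 of 31 SG-free CD4 T cells (16.1%) had mitosis transcripts, a ratio of 1.45 (0.35 to 5.71). On cleaned gates 2 of 41 control and 2 of 27 SG-free CD4 T cells had them.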

How the data were processed

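Subcutaneous mouse tumours were profiled as 1 library per diet, and the labels' numbering offers no replicates. The authors deposited a filtered matrix of UMI counts and a table of receptor contigs for each library. The matrix header names Cell Ranger 7.1.0, the submitters' processing notes give 2.2.2 and the build mm10, and which steps each version ran is not given in the sources used here. The 44 genes and all lists were chosen with earlier results of these data known. A barcode entered with 300 or more genes and no more than 20% of UMIs from mitochondrial genes. No doublet caller was run, and the sources do not say whether doublets were removed before deposit. Strict and cleaned gates stand in for that step.

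Counts were summed per class and library, scaled to CPM, and compared as ratios with exact conditional 95% intervals. T cell receptor and immunoglobulin genes were left out of the totals for CPM and of the genes compared. Medians over lists used log2 of CPM plus 5. Shares came from cells thinned once to 1000 UMIs with a fixed seed, leaving out 2 to 25 shallower cells per class and library among CD8 T cells, macrophages and tumour cells and 0 NK cells, with exact binomial (Clopper-Pearson) intervals. Intervals cover counting error only. With 1 library per diet no test between diets is possible, and p-values are not given. The library totals were 161332426 UMIs in 8466 barcodes for control and 157234945 UMIs in 7999 barcodes for SG-free.

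Genes were named by rule, namely 18 fixed members in each class, the 3 members at either end of the ratios, and the 2 genes at either end of each further list. A gene named by this rule is not reported here. Other genes named, among them those set between cells with and without mitosis genes, were chosen after their values were seen. The scripts were tested on simulated data. Alternatives covered filters, gates, thinning, scaling, the fold, the minimum level and the largest clone. Promoter windows came from RefSeq (GRCm38.p6). Python 3.11.15, numpy 2.4.6, scipy 1.17.1, pandas 2.3.3 and matplotlib 3.10.9 were used.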

Additional observations from a re-analysis of the deposited data

Results flagged for a closer look

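The summed mitosis genes drew attention because the ratio of SG-free to control was above 1 in CD8 T cells (1.61) and below 1 in NK cells, macrophages and tumour cells, each with a counting interval on its own side of 1. CD4 T cells, outside these 4 classes, also had a ratio above 1 (2.24, 2.05 to 2.46), though 0.759 with cleaned gates and equal weight together. A ratio above 1 was thus not particular to CD8 T cells. The difference between classes was not tested, since each diet has 1 library. Single genes showed the same opposition. In CD8 T cells the ratios were 1.4 for Mki67, 2.59 for Ube2c, 2.13 for Cenpf and 1.3 for Birc5, against macrophages and tumour cells with ratios below 1. For Cenpa (3.01), Ccnb1 (2.75), Ccnb2 (1.54), Cdc20 (2.53) and Kif20a (2.19) in CD8 T cells, NK cells were below 1 as well. Kif20a passed the minimum through SG-free alone in CD8 T cells and through control alone in macrophages. Its ratios there had to differ from 1 and are no support on their own. None of these differences was tested.

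Barcodes with neither Krt20 nor Ptprc that met no other gate belong to no class as first defined, and 2768 of them passed the filter in control and 1922 in SG-free. Of those with at least 1000 UMIs, 24.1% in control and 12.9% in SG-free had at least 2 mitosis genes, whereas 0 of the neutrophils did. In control 92.6% and in SG-free 95.9% of these barcodes were rich in the 17 genes abundant in tumour cells, and most entered the cleaned tumour class, which does not use Krt20. On cleaned gates 552 and 437 were left without a class, of which 18.7% and 11.3% of those deep enough had at least 2 mitosis genes.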

How the results depend on the processing

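No paired analysis was possible because each diet has 1 library and the labels give no replicate numbers. No single alternative turned the direction of a summed level in the 4 classes. With cleaned gates and equal weight together, the replication sum of CD8 T cells went from 0.747 to 1.04 (0.743 to 1.47), and the mitosis sum of CD4 T cells from 2.24 to 0.759. Of the values that answer a comparison, 176 stayed within their counting interval, or within 1.5 times for a count, and 40 moved. Of single-gene values, 840 stayed, 69 moved and 3 reversed. The cause of these moves was not tested.

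For the mitosis sum, strict gates gave ratios of 1.38 in CD8 T cells and 0.625 in NK cells. Cleaned gates, chosen after seeing the data, gave 0.588 in NK cells and 0.753 in tumour cells. Equal weight per cell, also added then, gave 1.48, 0.459, 0.707 and 0.711 in CD8 T cells, NK cells, macrophages and tumour cells. Division by the median gene gave 0.742 in macrophages and 0.803 in tumour cells, where higher thresholds gave 0.767 and a total without ribosomal and mitochondrial genes 0.759.

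For the replication sum in CD8 T cells the ratios were 0.851 with strict gates, 0.877 with cleaned gates and 0.976 with equal weight, which in NK cells gave 0.567. In macrophages the median gene gave 0.994 and equal weight 0.976. In tumour cells higher thresholds gave 0.82, cleaned gates 0.778, the reduced total 0.804, the median gene 0.851 and equal weight 0.778. With at least 1 gene as the criterion the share ratio of tumour cells was 0.808 for mitosis and 0.802 for replication.

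Counts of genes past the fold moved more. Shares of all genes past the fold are given above only at 1.5-fold, for the gates as described and the cleaned gates. The counts below under any other setting have no such share beside them. Whether they exceed the general share of genes was not tested. In CD8 T cells the 10 higher became 6 with strict gates, and the 3 lower became 7 with strict gates, 8 with cleaned gates and 1 at 2-fold. In NK cells the 1 higher became 2 with strict gates, 0 at 2-fold and 6 with no minimum level, and the 15 lower became 6 at 2-fold. In macrophages the 7 lower became 4 against the median gene and 0 at 2-fold. In tumour cells the 3 lower became 1 with higher thresholds, cleaned gates or the median gene, 0 at 2-fold and 6 with no minimum level. Cdkn1a in NK cells (1.42) reversed to 0.898 with strict gates and 0.769 with cleaned gates, and Cks2 in tumour cells (0.94) to 1.01 against the median gene. The median gene itself lay at a log2 ratio of -0.11 in macrophages and -0.10 in tumour cells. The control NK values rest on 17 cells, 14 on cleaned gates, and control CD8 T cells were the shallowest of the 4 classes, with a median of 3810 UMIs.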
